A study of Mus musculus with 18 samples.

Results

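The potassium channel genes of the embryonic mouse mammary bud were taken as every gene of the count table whose symbol begins with Kcn and a lower-case letter, without Kcnn4 and without antisense or opposite-strand symbols. The rule found 89 of the 24376 genes in the table. Of these, 68 reached 10 or more counts in at least 4 libraries and are reported here, and 67 of the 68 were tested. The 18 libraries were made from epithelium that had been dissected by needle out of mammary buds 1 to 3, with 2 to 3 littermates of like genotype pooled per library. The stabilized embryos, Krt14Cre/wt; Ctnn1bflox3/wt, lose exon 3 of 1 allele of the gene for β-catenin where Krt14Cre is active, which is the epithelium, and gave 4 libraries at E13.5 and 5 at E16.5. Their control littermates, Krt14wt/wt; Ctnn1bflox3/wt, carry the same floxed allele and no Cre, and also gave 4 libraries at E13.5 and 5 at E16.5. All embryos were of mixed C57Bl/6 and NMRI background. Embryos of both sexes were used at E13.5 and females alone at E16.5, so stage and sex cannot be told apart in a comparison of stages. Cre and stabilized β-catenin likewise cannot be told apart, since every stabilized library and no control library carries Cre.

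Potassium channels let potassium ions cross membranes down their electrochemical gradient and thereby set the membrane potential. In excitable cells voltage-gated members end the action potential, while inward rectifiers and two-pore-domain channels hold the resting potential. In epithelia, potassium channels recycle the potassium that the sodium pump brings in and provide the driving force for the transport of other ions. Most pores are assembled from several subunits, and some Kcn genes encode subunits that form no working pore alone, or accessory proteins that change gating or traffic. Many family members are best known from neurons, muscle or kidney, and their names carry no statement about the mammary bud.

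Library totals lay between 26768810 and 27998587 counts in stabilized buds and between 27417578 and 29310457 in control buds at E13.5. At E16.5 they lay between 29304083 and 36082518 in stabilized and between 27659003 and 36922108 in control buds. Levels are given in CPM, that is counts per 1000000 counts of a library scaled by the trimmed mean of M values; each ± is an SD over the 4 or 5 libraries of a group, and log2 fold changes carry their SE. A change passed when edgeR's quasi-likelihood test, adjusted by Benjamini-Hochberg over 17269 genes, gave an adjusted p under 0.05. Gene counts do not show the loss of exon 3, so they check the genotype labels only indirectly: Ctnnb1 itself averaged 3260 ± 347 CPM in stabilized and 2683 ± 333 CPM in control buds at E13.5 (adjusted p = 0.307), and 2278 ± 564 CPM and 1248 ± 111 CPM at E16.5 (adjusted p = 9.02e-05). Epithelial markers (Krt5, Krt14 and others) summed to between 2079 and 5842 CPM in every library, so the labelled tissue was present throughout. At E16.5 their sums did not overlap, at 2815 to 5842 CPM in stabilized and 2202 to 2453 CPM in control buds. Of the 6 markers, 1 passed upwards and 2 downwards at E13.5, and 2 upwards and 3 downwards at E16.5. Krt14 averaged 349 ± 63 CPM in stabilized and 812.5 ± 104.3 CPM in control buds at E13.5 (adjusted p = 0.00169). At E16.5 it averaged 519 ± 244 CPM and 671 ± 70 CPM and did not pass (adjusted p = 0.189). Control replicate 3 of E13.5 stood apart from its group with the highest mitochondrial share there, 4.18%. Stabilized replicate 4 of E16.5 stood farthest from its group, with a chi-square per gene of 614 to 698.8 against the other 4, and replicates 1 and 3 lay at 152.5 to 194.5 from each other and from replicates 2 and 5, which were 38.8 apart. The mitochondrial share ranged from 1.79% to 2.45% in stabilized and from 2.18% to 4.18% in control buds at E13.5, and from 2.62% to 5.36% in stabilized and from 2.21% to 3.88% in control buds at E16.5, where stabilized replicates 1, 2, 4 and 5 lay above every control. Its part in the results was not tested. In bulk tissue, fewer cells of a type and less RNA per cell cannot be told apart. Among the 68 reported genes, 25 share exonic bases with another annotated gene, 7 of them over 10% or more of their exons. Whether the counting used strand is not given in the sources used here; reads of Kcnmb4 and Kcnk2, which overlap antisense genes in this way, may therefore include their partners'.

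Per kilobase of exon, the highest member over all libraries was Kcnk1, a weakly conducting two-pore-domain channel, at 17.0 CPM per kb. Kcnmb4, the accessory β subunit that slows the large-conductance calcium-activated channel, followed at 8.83 CPM per kb. Next came Kcne1l, a single-pass accessory subunit, at 5.08 CPM per kb and Kcnv1, a silent subunit that joins and alters Kv2 channels, at 4.67 CPM per kb. The following 6 lay close together, from 2.53 CPM per kb for the inward rectifier Kcnj15 down to 2.16 CPM per kb for the voltage-gated Kcnh1, with the two-pore-domain genes Kcnk5, Kcnk2, Kcnk6 and Kcnk9 between them. These means hide large differences between groups, as the heat map of levels by library shows. At the other end, 7 of the 21 genes under the detection rule never reached 10 counts in a library (Kcne2, Kcnh4, Kcnj5, Kcnj10, Kcnk10, Kcnk12 and Kcns2). Just outside the rule, with 3 libraries, lay Kcne1, Kcnj9, Kcnk16 and Kcnmb2, and just inside it lay Kcnk13 with 4 libraries and Kcnj13 with 5. Kcnk13 was too low for the test.

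**Figure D1:**
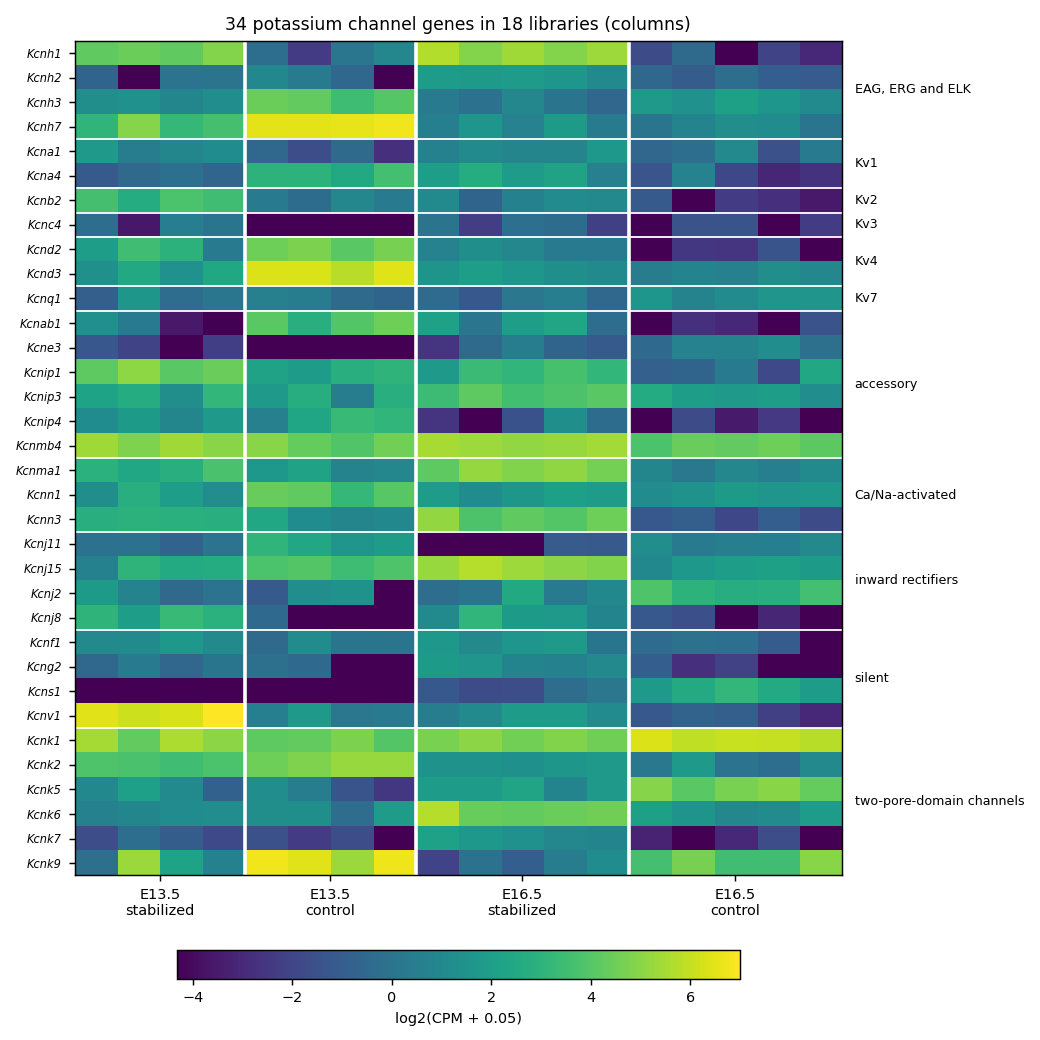
Levels of 34 potassium channel genes that passed in a genotype comparison, one row per gene grouped by structural class and one column per library, coloured by log2(CPM + 0.05). Stabilized libraries stand left of control libraries within each stage; Kcnv1 is bright in the 4 stabilized libraries of E13.5 and Kcnd3 in the 4 control libraries of that stage.

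Promoter sequence was available for 48 of the 68 reported genes, as 64 windows from 250 bases before to 50 bases after an annotated RefSeq start on GRCm38.p6. Because β-catenin acts through TCF and LEF factors, the windows were searched on both strands for the 7-base words CTTTGAA and CTTTGAT, the core of their usual binding motif. Such a word stood in 3 of the 64 windows, or 4.69%, against 2842 of all 32851 RefSeq windows of this length, or 8.65%. The 3 windows belong to Kcne4, Kcns1 and 1 of the 4 starts of Kcnk2. No word was found in the 9 windows of genes that rose at E13.5, and Kcna1, Kcnb2 and Kcnv1 had no window among them. A word stood in 1 of the 14 windows of genes that fell at E13.5. At E16.5 it stood in 1 of the 27 windows of genes that rose and 1 of the 4 of genes that fell. Differences between these small sets were not tested. A match is a run of letters and not a measured site, and a window without one says nothing of distant enhancers. Printed below, 5′ to 3′ on the gene's strand with the word in capitals, are the window of Kcnk2, which changed in opposite directions at the 2 stages, that of Kcns1, the one silent subunit that fell at E16.5, and that of Kcnh1, which rose most at E16.5 and holds no word. They lie at chr1:189402224-189402523 (minus strand), chr2:164171064-164171363 (minus strand) and chr1:192190527-192190826 (plus strand).
Kcnk2: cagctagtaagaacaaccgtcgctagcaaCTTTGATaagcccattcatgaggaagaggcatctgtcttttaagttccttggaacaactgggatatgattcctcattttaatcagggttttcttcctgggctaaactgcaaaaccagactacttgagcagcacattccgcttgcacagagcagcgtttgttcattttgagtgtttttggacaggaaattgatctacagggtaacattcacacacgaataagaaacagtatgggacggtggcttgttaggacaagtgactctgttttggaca
Kcns1: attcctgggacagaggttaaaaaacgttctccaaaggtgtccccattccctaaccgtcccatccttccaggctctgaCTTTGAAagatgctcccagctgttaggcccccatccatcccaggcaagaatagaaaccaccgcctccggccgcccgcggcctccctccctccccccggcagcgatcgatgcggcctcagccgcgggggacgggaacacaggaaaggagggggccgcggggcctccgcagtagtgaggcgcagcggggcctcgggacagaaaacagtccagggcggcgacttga
Kcnh1: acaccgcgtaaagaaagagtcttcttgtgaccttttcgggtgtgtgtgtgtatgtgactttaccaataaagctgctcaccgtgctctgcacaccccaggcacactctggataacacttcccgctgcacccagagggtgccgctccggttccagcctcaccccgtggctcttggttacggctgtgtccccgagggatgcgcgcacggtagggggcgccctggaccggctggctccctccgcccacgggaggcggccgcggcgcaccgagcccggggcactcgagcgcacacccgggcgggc
In these windows the word of Kcnk2 begins 221 bases and that of Kcns1 begins 173 bases before the annotated start.

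The first comparison asks which potassium channel genes differ by genotype at E13.5. Of the 67 tested members, 11 rose and 9 fell, or 29.9%, against 14.9% of all tested genes (9.58% higher and 5.29% lower). The median log2 fold change of the members was 0.03, beside 0.01 for all tested genes, so higher and lower members nearly balanced. The silent subunit Kcnv1 and the voltage-gated Kcnh1 rose, and the A-type pore Kcnd3 and the voltage-gated Kcnh7 fell, each without overlap between the groups.

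Kcnv1 (chromosome 15, 45106284 to 45114920, minus strand, GRCm38) had 69.9, 78.2, 88.5 and 127 CPM in stabilized buds at E13.5, against 1.07, 1.26, 1.42 and 3.33 CPM in control buds. The groups lay far apart, and control replicate 2 was the highest control. The log2 fold change was 5.67 ± 0.48, with an adjusted p of 2.47e-07 in edgeR's test. Kcnv1 protein does not conduct alone and works by joining Kv2 pores. The Kv2 gene Kcnb2 rose with it: 6.37, 11.3, 12.5 and 13.7 CPM in stabilized and 0.744, 1.17, 1.18 and 1.81 CPM in control buds, a log2 fold change of 3.16 ± 0.70 (adjusted p = 0.00365). Its groups did not overlap either.

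Kcnh1 (chromosome 1, 192190774 to 192510159, plus strand), an ether-a-go-go channel known mainly from brain and from tumours, had 18.4, 18.9, 21.6 and 29.4 CPM in stabilized buds against 0.149, 0.799, 1.04 and 1.84 CPM in control buds. Every stabilized library lay above every control library, with a log2 fold change of 4.53 ± 0.64 (adjusted p = 8.43e-05). Its family members Kcnh7 and Kcnh3 went the other way. Kcnh7 (chromosome 2, 62693414 to 63184287, minus strand), a channel of the ERG type, had 8.34, 9.22, 12.6 and 30.9 CPM in stabilized and 90.9, 92.6, 94.2 and 106 CPM in control buds, a log2 fold change of −2.65 ± 0.42 (adjusted p = 0.00022). Stabilized replicate 2 was the library nearest to the controls. Kcnh3, a brain channel of the ELK type, had 1.80, 2.26, 2.33 and 2.62 CPM in stabilized and 11.2, 15.8, 19.3 and 21.7 CPM in control buds (log2 fold change −2.92 ± 0.36, adjusted p = 1.08e-05).

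Kv4 subunits carry the fast, transient A-type current, and 2 of their 3 genes fell at E13.5. Kcnd3 (chromosome 3, 105452330 to 105674002, plus strand) had 2.53, 2.56, 5.40 and 5.87 CPM in stabilized buds, against 53.9, 82.2, 83.8 and 85.4 CPM in control buds. The highest stabilized value was far under the lowest control value, which came from control replicate 3, and the log2 fold change was −4.22 ± 0.31 (adjusted p = 1.57e-08). Kcnd2 had 1.24, 4.00, 7.66 and 11.3 CPM in stabilized and 16.9, 22.1, 25.4 and 26.7 CPM in control buds, without overlap, a log2 fold change of −1.91 ± 0.64 at the edge of the threshold (adjusted p = 0.0495). Kcnd1 averaged 4.33 ± 0.54 CPM in stabilized and 6.90 ± 2.91 CPM in control buds and did not pass. Kcna4, the Kv1 pore that also inactivates fast, had 0.410, 0.589, 0.697 and 0.832 CPM in stabilized and 5.72, 7.78, 7.82 and 12.3 CPM in control buds (log2 fold change −3.72 ± 0.76, adjusted p = 0.0018). Kcnab1, the cytoplasmic β subunit that confers fast inactivation on Kv1 pores, was lower as well, at 0, 0.0347, 1.19 and 2.53 CPM in stabilized and 6.96, 15.8, 17.0 and 22.1 CPM in control buds (log2 fold change −4.03 ± 1.19, adjusted p = 0.0282). Kcnd3, Kcnd2, Kcna4 and Kcnab1 were put together after their values were seen, so their shared direction and lack of overlap are no separate result. Kcnc4, a Kv3 pore that inactivates fast, was higher in stabilized buds at E13.5 (adjusted p = 0.012). Kcnip1, a partner of Kv4 pores, averaged 22.6 ± 7.5 CPM in stabilized and 5.82 ± 2.11 CPM in control buds, without overlap, and did not pass (adjusted p = 0.0653).

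Among calcium-activated channels, Kcnma1, the large-conductance pore, and Kcnn3, a small-conductance pore, rose, and Kcnn1, a second small-conductance pore, fell. Kcnma1 had 5.34, 6.79, 7.39 and 13.2 CPM in stabilized and 1.60, 1.84, 3.19 and 4.46 CPM in control buds (log2 fold change 1.56 ± 0.34, adjusted p = 0.00352). With the gene-wise factors of the deposited normalized table the call was lost, at 0.60 (adjusted p = 0.583). Kcnn3 had 6.87, 7.08, 7.10 and 7.70 CPM in stabilized and 1.71, 1.88, 2.23 and 5.53 CPM in control buds, the last from control replicate 1 (log2 fold change 1.34 ± 0.37, adjusted p = 0.0185). Kcnn1 had 2.26, 2.46, 3.95 and 6.80 CPM in stabilized and 9.33, 16.4, 18.9 and 20.2 CPM in control buds (log2 fold change −2.07 ± 0.36, adjusted p = 0.000464). None of the 3 genes had overlapping groups. Kcnmb4, the β subunit partner of Kcnma1, rose slightly with overlapping groups, 35.7 ± 7.2 CPM in stabilized against 22.7 ± 7.0 CPM in control buds (log2 fold change 0.65 ± 0.20, adjusted p = 0.0376).

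Inward rectifiers and two-pore-domain channels, which set the resting potential, had 2 members each that passed at E13.5. Kcnj8, the pore of a vascular ATP-sensitive channel, had 3.98, 7.43, 8.14 and 10.1 CPM in stabilized buds, while 3 control libraries had 0 and control replicate 1 had 0.680 CPM (log2 fold change 5.39 ± 1.35, adjusted p = 0.00956). Without that library the fitted value was 10.79, since the remaining controls were at 0. Abcc9, the sulfonylurea receptor that assembles with Kcnj8, was higher too, at 13.4 ± 3.2 CPM in stabilized and 2.01 ± 0.69 CPM in control buds (log2 fold change 2.74 ± 0.54, adjusted p = 0.00124). Both genes are known from pericytes. The 5 pericyte markers, Abcc9 among them, summed to between 38.8 and 154 CPM in stabilized and between 7.44 and 26.7 CPM in control buds. Of the 5, 3 passed upwards. Rgs5 averaged 58.1 ± 37.4 CPM in stabilized and 0.0222 ± 0.0444 CPM in control buds, where it had 3 counts. Pdgfrb averaged 13.1 ± 3.2 CPM and 11.6 ± 8.5 CPM and did not pass (adjusted p = 0.869). Higd1b, too low for the test, had 7 counts in stabilized and 16 in control buds. None was at 0 in a whole group. The part of pericytes in these results was not tested. Kcnj15, an inward rectifier of kidney epithelium, fell to 1.54, 5.96, 6.45 and 8.20 CPM in stabilized buds, against 11.1, 13.8, 14.5 and 15.5 CPM in control buds, without overlap (log2 fold change −1.31 ± 0.35, adjusted p = 0.014); with the factors of the deposited table it was −0.76 (adjusted p = 0.531).

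Kcnk2, the stretch-sensitive two-pore-domain channel whose window is printed above, had 11.4, 13.3, 13.9 and 14.6 CPM in stabilized and 22.4, 27.6, 37.6 and 37.9 CPM in control buds (log2 fold change −1.24 ± 0.33, adjusted p = 0.0141). The groups did not overlap, although the factors of the deposited table gave −0.91 (adjusted p = 0.216). Kcnk1 had 19.1, 32.1, 44.2 and 47.9 CPM in stabilized and 15.8, 18.1, 19.1 and 26.7 CPM in control buds, with overlap (log2 fold change 0.85 ± 0.23, adjusted p = 0.0158). Kcnk9, an acid-sensitive two-pore-domain channel, was at 0.855, 1.54, 4.68 and 38.6 CPM in stabilized and 39.5, 87.4, 103 and 107 CPM in control buds. Its log2 fold change of −2.88 ± 0.96 missed the threshold (adjusted p = 0.0581); stabilized replicate 2 had the value of 38.6 CPM. That library was also the highest stabilized one for 6 of the 9 members that fell (Kcnd2, Kcnd3, Kcnh3, Kcnh7, Kcnj15 and Kcnn1).

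The other 3 members that rose were low. Kcna1, a Kv1 pore of axons, averaged 2.19 ± 0.90 CPM in stabilized and 0.429 ± 0.294 CPM in control buds (log2 fold change 2.34 ± 0.73, adjusted p = 0.036). Kcnc4, a Kv3 pore, had 94 counts over the 4 stabilized libraries, only 1 of these counts in replicate 2, and 0 over the 4 controls. It was at least 33.8-fold higher when the controls are set to the floor of 3 counts over the group (adjusted p = 0.012). Kcne3, an accessory subunit that opens Kcnq1 in gut epithelium, had 22 counts over the stabilized libraries, 1 of which was at 0, and 0 over the controls, at least 7.92-fold higher on the same floor (adjusted p = 0.0148). Floors and counting intervals cover counting error only.

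**Figure D2:**
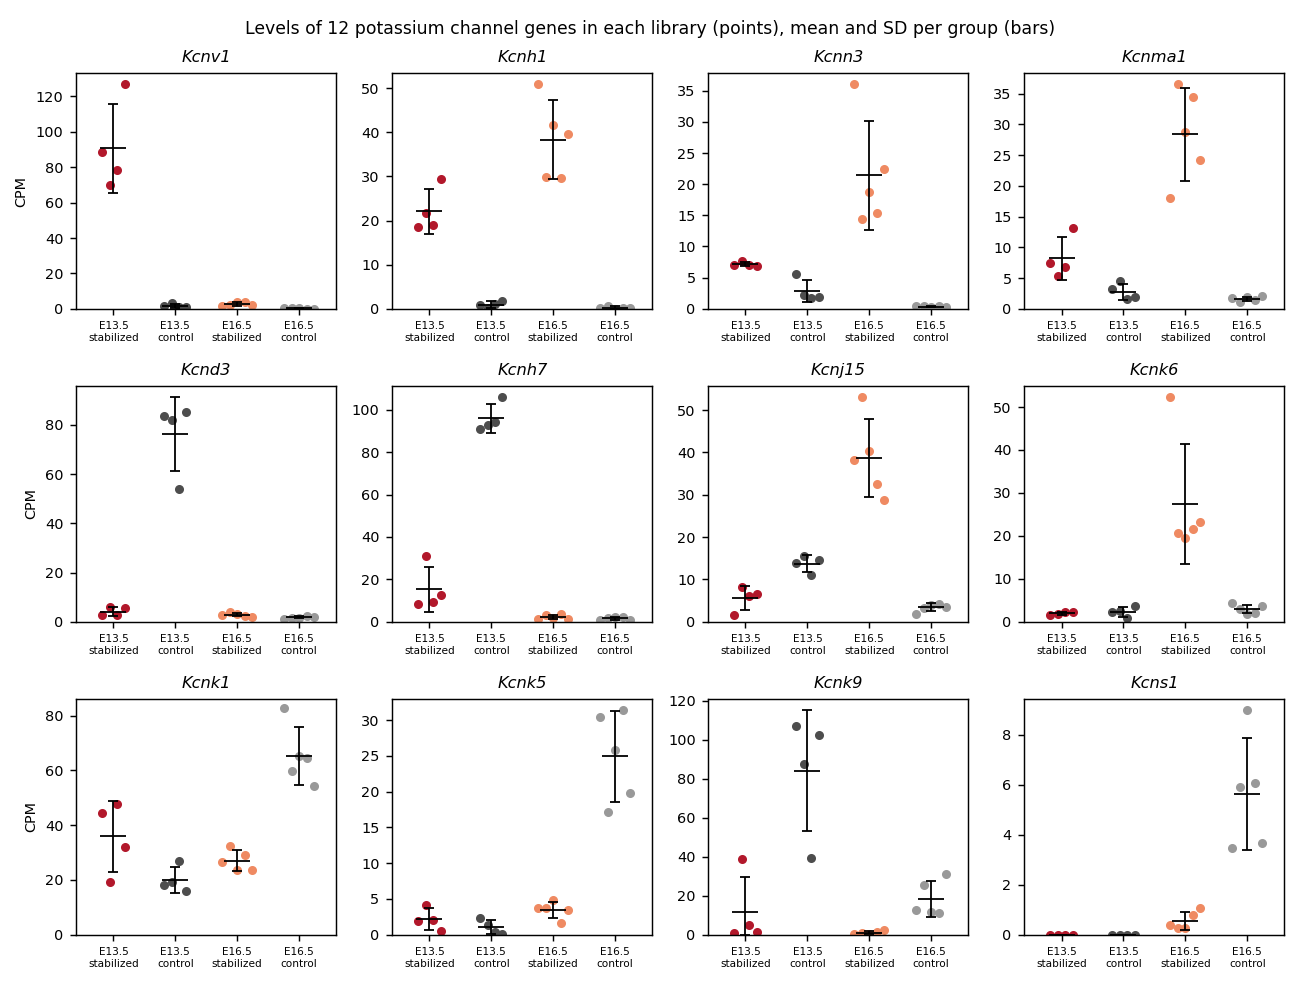
CPM of single libraries (points) for 12 potassium channel genes, on linear axes that start at 0, with group means (dashes) and SDs (bars, cut at 0 below); stabilized libraries stand left of control libraries within each stage. Kcnv1 lies between 69.9 and 127 CPM in the 4 stabilized libraries of E13.5 and at no more than 3.33 CPM in their controls.

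Several E13.5 calls lay near the threshold and depended on single libraries. The call of Kcnd2 was lost in 13 of the 18 fits that left out 1 library; it was kept without control replicate 3 or stabilized replicate 2 of E13.5, or control replicates 1, 4 or 5 of E16.5. That of Kcnmb4 was lost without control replicates 2, 3 or 4 or stabilized replicates 1 or 3 of E13.5, or control replicate 3 of E16.5. Kcna1 lost its call without control replicates 2 or 4 or stabilized replicates 1, 3 or 4, and Kcnab1 without control replicates 1 or 4 or stabilized replicates 2 or 3. Kcnk1 lost it without control replicate 4 or stabilized replicates 1 or 3, and Kcnn3 without control replicates 2 or 4. Over these fits the log2 fold changes ranged from −2.40 to −1.57 for Kcnd2 and from 0.50 to 0.85 for Kcnmb4, and the direction of these 6 genes did not turn.

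The same comparison at E16.5, between stabilized and control buds 3 days later, gave 23 members higher and 8 lower. These are 46.3% of the 67 tested, beside 41.7% of all tested genes, so the share called lay near the background. The members that rose were 34.3% of those tested, beside 22.2% of all genes, and those that fell 11.9%, beside 19.4%. The median log2 fold change was 1.07 over the members and 0.10 over all tested genes. Among members whose mean log2 CPM over the libraries was 0 or more and whose groups did not overlap, the largest rises were those of Kcnh1, Kcnn3 and Kcnma1 and the largest falls those of Kcnk9 and Kcnk5.

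Kcnh1 had 29.6, 29.8, 39.6, 41.6 and 50.8 CPM in stabilized buds at E16.5, against 0, 0.0714, 0.201, 0.263 and 0.711 CPM in control buds. Its log2 fold change was 7.20 ± 0.67 (adjusted p = 1.84e-07), and the groups were separated by a wide gap. Kcnn3 (chromosome 3, 89520164 to 89675132, plus strand) had 14.4, 15.4, 18.8, 22.5 and 36.01 CPM in stabilized and 0.226, 0.250, 0.379, 0.469 and 0.485 CPM in control buds (log2 fold change 5.86 ± 0.41, adjusted p = 1.3e-09). Kcnma1 (chromosome 14, 23289431 to 24014491, minus strand) had 18.02, 24.3, 28.8, 34.5 and 36.5 CPM in stabilized and 1.10, 1.44, 1.75, 1.84 and 2.04 CPM in control buds (log2 fold change 4.12 ± 0.34, adjusted p = 1.25e-08). In each of the 3 genes all 5 stabilized libraries lay above all 5 controls. Kcnmb4, whose protein assembles with that of Kcnma1, had 35.4, 37.3, 39.9, 43.1 and 45.7 CPM in stabilized and 13.6, 17.5, 19.4, 20.8 and 22.1 CPM in control buds, now without overlap (log2 fold change 1.11 ± 0.18, adjusted p = 6.9e-05). Kcnn1 and Kcnn2, the other small-conductance pores, did not pass, with 3.40 ± 0.74 and 2.40 ± 1.11 CPM in stabilized and 2.92 ± 0.52 and 1.14 ± 0.63 CPM in control buds.

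Kcnj15 (chromosome 16, 95257558 to 95300260, plus strand) had 28.8, 32.6, 38.3, 40.3 and 53.1 CPM in stabilized buds at E16.5, against 1.87, 3.27, 3.53, 3.95 and 4.29 CPM in control buds. That is a rise of 3.52 ± 0.34 on the log2 scale (adjusted p = 9.55e-08). Kcnk6 (chromosome 7, 29221926 to 29232515, minus strand), a two-pore-domain channel found on lysosomes and in vessels, had 19.4, 20.6, 21.5, 23.1 and 52.3 CPM in stabilized and 1.84, 2.11, 2.85, 3.64 and 4.26 CPM in control buds (log2 fold change 3.22 ± 0.38, adjusted p = 1.4e-06). The value of 52.3 CPM came from stabilized replicate 1, and the other 4 stabilized libraries still lay above every control. Kcnj8 stayed higher, at 1.66, 2.03, 3.32, 3.54 and 8.58 CPM in stabilized and 0, 0, 0.0670, 0.291 and 0.379 CPM in control buds (log2 fold change 4.63 ± 1.18, adjusted p = 0.00371), as did its partner Abcc9 (2.43 ± 0.48, adjusted p = 0.000389). The pericyte markers summed to between 228 and 356 CPM in stabilized and between 37.9 and 42.3 CPM in control buds; 3 of the 5 passed upwards and Pdgfrb passed downwards, while Higd1b was at 0 in all controls. Their part in the Kcnj8 result was not tested.

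Kcnd2, Kcna4, Kcnab1 and Kcnd3, all lower in stabilized buds at E13.5, were higher there at E16.5, though at small levels; these 4 were put together after their values were seen. The Kv4 pore Kcnd1 passed at neither stage (adjusted p = 0.35 at E13.5 and 0.716 at E16.5), and Kcnc4, a Kv3 pore that inactivates fast, was higher at E13.5 and did not pass at E16.5 (adjusted p = 0.274). Kcnd2 had 1.25, 1.26, 1.57, 1.84 and 2.43 CPM in stabilized and 0, 0, 0.113, 0.129 and 0.335 CPM in control buds (log2 fold change 3.82 ± 0.69, adjusted p = 0.000185). Kcna4 averaged 3.98 ± 1.75 CPM in stabilized and 0.460 ± 0.620 CPM in control buds, overlapping through control replicate 2 at 1.55 CPM (log2 fold change 3.09 ± 0.67, adjusted p = 0.000888). Kcnab1 averaged 3.05 ± 2.00 CPM and 0.0987 ± 0.132 CPM, without overlap (log2 fold change 4.93 ± 1.18, adjusted p = 0.00273). Kcnd3 rose slightly with overlapping groups, 2.84 ± 0.68 CPM in stabilized and 1.73 ± 0.42 CPM in control buds (0.71 ± 0.26, adjusted p = 0.0321). Kv4 channels carry calcium-binding KChIP subunits, and 3 of the 4 KChIP genes rose: Kcnip1 by 2.53 ± 0.64, Kcnip3 by 1.87 ± 0.41 and Kcnip4 by 3.01 ± 1.09 on the log2 scale, with adjusted p-values of 0.00371, 0.00109 and 0.033. Kcnip3, the best measured of them, had 14.4 ± 3.3 CPM in stabilized and 3.94 ± 1.38 CPM in control buds, without overlap. Kcnip2 did not pass (adjusted p = 0.17). None of the 4 passed at E13.5, where Kcnip1 averaged 22.6 ± 7.50 CPM in stabilized and 5.82 ± 2.11 CPM in control buds (adjusted p = 0.0653). Control replicate 5 carried most of the control signal of Kcnip1, and without it the log2 fold change was larger, at 3.84. For Kcnip4, stabilized replicate 4 weighed as much: without it the value was 1.70 and the call was lost, as it was without control replicates 1, 3 or 5.

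Silent subunits divided at E16.5. Kcnv1 had fallen far below its E13.5 level but stayed higher in stabilized buds, at 1.34, 2.05, 2.17, 3.78 and 3.79 CPM, against 0.0714, 0.168, 0.379, 0.489 and 0.549 CPM in control buds (log2 fold change 2.97 ± 0.44, adjusted p = 2.97e-05). Its pore partner Kcnb2 averaged 1.66 ± 0.67 CPM in stabilized and 0.139 ± 0.162 CPM in control buds, also without overlap (3.52 ± 0.67, adjusted p = 0.000284). Kcnf1 and Kcng2, further silent Kv2 partners, rose by 2.11 ± 0.74 and 3.88 ± 1.26 on the log2 scale (adjusted p = 0.0264 and 0.0178). Kcns1, a silent subunit of sensory neurons, had 0.252, 0.273, 0.383, 0.785 and 1.05 CPM in stabilized and 3.47, 3.68, 5.92, 6.06 and 8.98 CPM in control buds (log2 fold change −3.35 ± 0.66, adjusted p = 0.000994). It was at 0 in all 8 libraries of E13.5. The two-pore-domain gene Kcnk7, whose protein has shown no current of its own, averaged 2.74 ± 1.09 CPM in stabilized and 0.0803 ± 0.11 CPM in control buds (5.02 ± 1.12, adjusted p = 0.00119).

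Among the 8 members that fell at E16.5, 3 were two-pore-domain channels. Kcnk5 (chromosome 14, 20140057 to 20181809, minus strand), the alkali-activated channel of kidney tubules, had 1.68, 3.46, 3.66, 3.67 and 4.84 CPM in stabilized and 17.1, 19.7, 25.9, 30.5 and 31.4 CPM in control buds (log2 fold change −2.85 ± 0.58, adjusted p = 0.000586). Kcnk1 (chromosome 8, 125995170 to 126030685, plus strand) had 23.5, 23.7, 26.5, 29.0 and 32.4 CPM in stabilized and 54.3, 59.9, 64.4, 65.2 and 82.7 CPM in control buds (−1.27 ± 0.21, adjusted p = 5.38e-05). Kcnk9 (chromosome 15, 72501089 to 72546340, minus strand) had 0.191, 0.477, 0.915, 1.32 and 2.24 CPM in stabilized and 11.3, 11.5, 12.3, 25.5 and 31.0 CPM in control buds (−4.14 ± 0.95, adjusted p = 0.00248). None of the 3 genes had overlapping groups, and Kcnk1, the highest member per kilobase, was among them. Kcnj11, the ATP-sensitive pore of pancreatic β cells, averaged 0.167 ± 0.229 CPM in stabilized and 1.65 ± 0.44 CPM in control buds (−3.27 ± 0.93, adjusted p = 0.00769). Its partner Abcc8 fell with it, 0.360 ± 0.315 CPM against 2.33 ± 0.68 CPM (−2.69 ± 0.67, adjusted p = 0.00277), so the 2 receptor and pore pairs moved in opposite directions. Kcnj2, the classical strong inward rectifier, averaged 2.12 ± 2.05 CPM in stabilized, with stabilized replicate 3 at 5.72, and 9.53 ± 3.53 CPM in control buds (−2.16 ± 0.82, adjusted p = 0.0405). Kcnq1, the Kv7 pore of secretory epithelia, averaged 0.840 ± 0.392 CPM in stabilized and 2.52 ± 0.61 CPM in control buds (−1.58 ± 0.60, adjusted p = 0.042), and Kcnh3 1.10 ± 0.46 CPM and 3.04 ± 0.81 CPM (−1.46 ± 0.32, adjusted p = 0.000921).

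Kcnh2, the ERG channel of heart repolarization, rose at the edge of the threshold at E16.5, with 3.11 ± 0.66 CPM in stabilized and 0.556 ± 0.155 CPM in control buds (2.48 ± 0.96, adjusted p = 0.045). The call of Kcnh2 was lost in 13 of the 18 fits with 1 library left out, and was kept only without stabilized replicate 2 or a control library of E13.5. Calls of Kcnj2 and Kcnq1 were lost in 8 of these fits each. For Kcnj2 these were the fits without control replicates 1, 2, 3 or 5 or any stabilized library but replicate 3; for Kcnq1, those without any control library but replicate 2 or any stabilized library but replicate 4. Kcnd3 lost it without control replicates 1, 2 or 3 or stabilized replicates 2 or 3, and Kcnf1 without control replicate 4 or stabilized replicates 1 or 4. Kcnh3 lost it with the factors of the deposited table (−0.78, adjusted p = 0.244), as did Kcnd3 (0.47, adjusted p = 0.56) and Kcnh2 (1.21, adjusted p = 0.42).

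Markers of neurons and Schwann cells, in which many of these channels are best known, moved with genotype at both stages. Their 8 genes summed to between 158.9 and 226.1 CPM in stabilized and between 17.3 and 28.1 CPM in control buds at E13.5, with 3 of the 8 passing upwards. At E16.5 the sum lay between 98.4 and 145.9 CPM in stabilized and between 508.5 and 629.5 CPM in control buds, with 2 of the 8 passing upwards and only Sox10 downwards. Single genes made up these sums. Tubb3 rose at both stages, averaging 183 ± 33 CPM in stabilized and 8.32 ± 2.14 CPM in control buds at E13.5 and 72.1 ± 12.8 CPM and 5.11 ± 1.76 CPM at E16.5. Sox10 alone turned, with 8.16 ± 2.71 CPM in stabilized and 1.32 ± 0.51 CPM in control buds at E13.5, and 29.6 ± 19.9 CPM and 554 ± 59 CPM at E16.5. The other neuronal genes were low in every group. Elavl4 averaged at most 1.76 CPM, Snap25 at most 1.67 CPM, Stmn2 at most 1.17 CPM and Elavl3 at most 0.572 CPM. Snap25 and Stmn2 were at 0 in all E13.5 controls. In edgeR's test Snap25 passed upwards at E13.5 (adjusted p = 0.0411) and Stmn2 at E16.5 (adjusted p = 0.0294). Mesenchymal markers summed to between 285.3 and 405.8 CPM in stabilized and between 412.1 and 991.9 CPM in control buds at E13.5, of which Vim, the highest, was the only 1 of the 8 to pass. At E16.5 the sums overlapped, at 518 to 866.1 CPM in stabilized and 551.1 to 975.2 CPM in control buds, but members went both ways: Dcn rose to 301 ± 75 CPM in stabilized, against 4.02 ± 3.46 CPM in control buds, while Vim and Pdgfra fell (−1.72 and −1.51 on the log2 scale). Merkel cell markers summed to between 29.6 and 56.7 CPM in stabilized and between 47.0 and 56.7 CPM in control buds at E13.5, where Isl1 rose (12.1 ± 7.0 CPM in stabilized, 0 in all controls) and Piezo2 fell, 30.3 ± 4.6 CPM against 51.4 ± 4.0 CPM. At E16.5 they summed to between 62.5 and 89.4 CPM in stabilized and between 27.5 and 39.8 CPM in control buds, and 3 of the 5, Isl1, Insm1 and Piezo2, rose. Atoh1, which defines Merkel cells, was at 0 in all stabilized libraries of both stages and in all E13.5 controls. It had 21 counts over the E16.5 controls. Krt20 averaged 0.0913 ± 0.185 CPM in stabilized and 0.542 ± 0.269 CPM in control buds at E16.5 and did not pass (adjusted p = 0.196). The part of these cells in the channel results was not tested.

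Of the 20 members that passed at E13.5 and the 31 that passed at E16.5, 15 passed at both stages, or 75.0% and 48.4% of those lists. Over all tested genes 1716 did, 66.8% of those called at E13.5 and 23.9% of those called at E16.5. Both genotype comparisons use separate libraries. The 7 that rose at both were Kcnb2, Kcnh1, Kcnj8, Kcnma1, Kcnmb4, Kcnn3 and Kcnv1, and Kcnh3 fell at both. The other 7 turned: Kcna4, Kcnab1, Kcnd2, Kcnd3, Kcnj15 and Kcnk2 were lower in stabilized buds at E13.5 and higher at E16.5, and Kcnk1 was higher at E13.5 and lower at E16.5. Turning was thus seen in 46.7% of the members called at both stages, near the 48.0% of all genes called at both; lower at E13.5 and higher at E16.5 were 40.0% of these members, beside 18.7% of these genes. Kcnk2 at E16.5 averaged 2.88 ± 0.34 CPM in stabilized and 1.62 ± 1.04 CPM in control buds with overlapping groups, a log2 fold change of 0.83 ± 0.31 (adjusted p = 0.0354). That last call was lost in 6 of the 18 fits, those without control replicates 1, 3 or 4 or stabilized replicates 1, 4 or 5 of E16.5, and without control replicate 2 the value was 1.27.

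**Figure D3:**
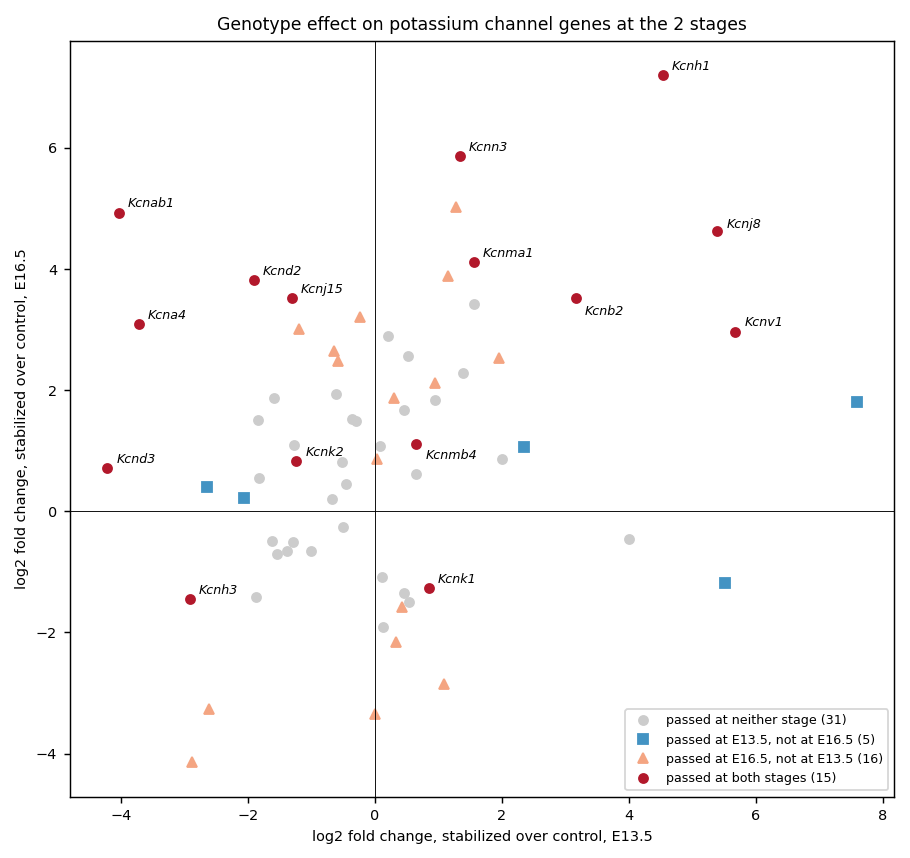
Log2 fold change of stabilized over control buds at E13.5 (horizontal) and at E16.5 (vertical) for the tested potassium channel genes, coloured by the stages at which they passed. Kcnh1 and Kcnv1 lie in the upper right, and Kcnd3, at −4.22 and 0.71, stands among the genes that changed side; the 2 rightmost squares, Kcnc4 and Kcne3, are fitted values against controls at 0 counts.

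The difference between the genotype effects at the 2 stages was tested directly as an interaction. It passed for 20 members, 15 with a more positive effect at E16.5 and 5 with a more negative one, or 29.9% of those tested, beside 32.2% of all tested genes (15.6% and 16.6%). The share called is thus near the background. All 7 genes that turned passed it, with values of 8.96 ± 1.69 for Kcnab1, 6.82 ± 1.01 for Kcna4, 5.73 ± 0.95 for Kcnd2, 4.93 ± 0.39 for Kcnd3, 4.83 ± 0.49 for Kcnj15, 2.07 ± 0.45 for Kcnk2 and −2.12 ± 0.31 for Kcnk1. Among the genes higher at both stages, the effect was larger at E16.5 for Kcnn3 (4.52 ± 0.53, adjusted p = 2.39e-06), Kcnma1 (2.56 ± 0.46, adjusted p = 0.000267) and Kcnh1 (2.67 ± 0.83, adjusted p = 0.0198), and smaller for Kcnv1 (−2.71 ± 0.62, adjusted p = 0.00261). That of Kcnh1 was lost without control replicate 4 of E13.5, and that of Kcnma1 with the factors of the deposited table (1.00, adjusted p = 0.342). Kcnk6 (3.45 ± 0.55) and Kcnk5 (−3.93 ± 0.85) differed by stage too. Both had passed at E16.5 and not at E13.5.

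Calls with stage were more frequent in control than in stabilized buds among the members, as they were among all genes; the interaction above is the test of that difference for each gene. In control buds, E16.5 set against E13.5 gave 7 members higher and 28 lower, 52.2% of those tested, beside 47.5% of all genes. The lower members were 41.8% of those tested, beside 22.6% of all genes, and the higher ones 10.4%, beside 24.9%. Their median log2 change was −1.37, beside −0.03 for all tested genes. In stabilized buds 8 members were higher and 11 lower, 28.4% of those tested, beside 28.0% of all genes, with a median of −0.32 beside 0.00. Markers of other cells moved with stage too. Melanocyte markers summed to between 165.6 and 254.9 CPM at E16.5 and between 14.9 and 28.8 CPM at E13.5 in stabilized buds, and to between 99.9 and 166.7 CPM and between 21.2 and 25.3 CPM in control buds, with 5 of the 6 passing upwards in each genotype. Immune cell markers were low, at 5.77 to 8.95 CPM at E16.5 and 3.24 to 6.58 CPM at E13.5 in stabilized buds, where 1 of 6 rose, and at 11.6 to 14.5 CPM and 2.94 to 4.76 CPM in control buds, where 4 of 6 rose. In control buds Sox10 rose to 554 ± 59 CPM at E16.5, against 1.32 ± 0.51 CPM at E13.5. The part of these cells in the stage results was not tested. The 2 stage comparisons share no library with each other, but both share their libraries with the genotype comparisons. In the fit without stabilized replicate 2 of E13.5 the 11 lower members became 5, and without stabilized replicate 2 of E16.5 they became 7.

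**Figure D4:**
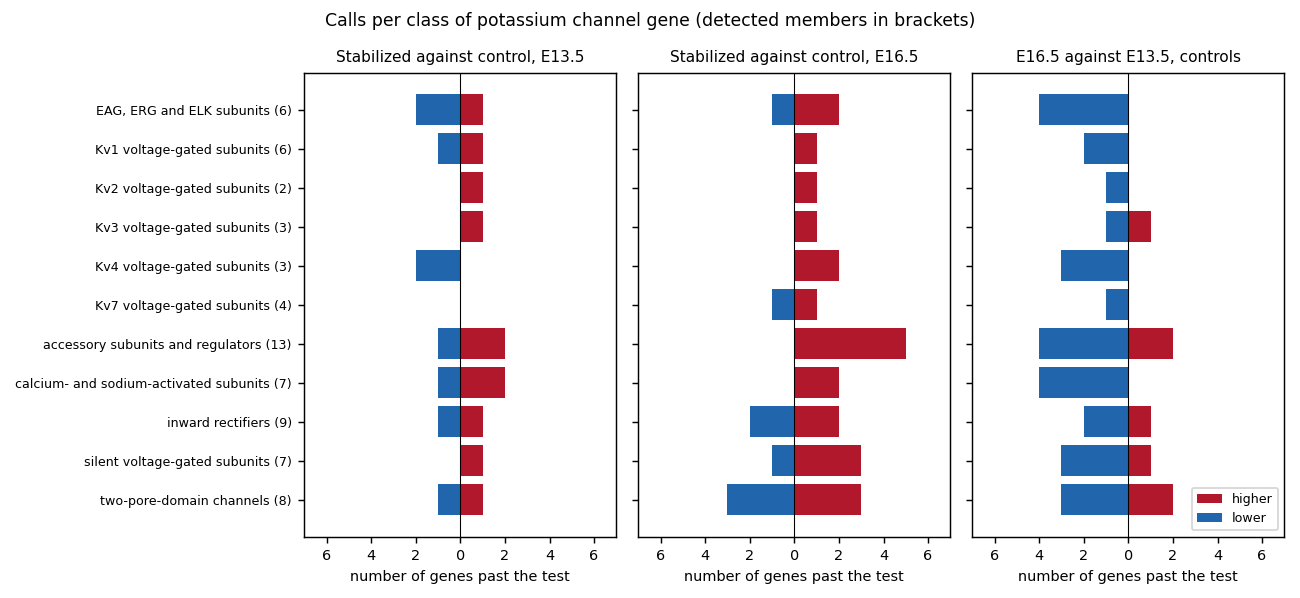
Number of potassium channel genes that passed upwards (bars to the right) and downwards (bars to the left) in each structural class, for stabilized against control buds at E13.5 and at E16.5 and for E16.5 against E13.5 in control buds; detected members stand in brackets. The two-pore-domain class has 3 genes up and 3 down at E16.5, and the accessory class has 5 up.

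The largest falls with stage in control buds were those of Kcnd2, Kcnab1, Kcnip4, Kcnh7, Kcnd3 and Kcnj3. Kcnh7 averaged 95.9 ± 6.8 CPM at E13.5 and 1.64 ± 0.65 CPM at E16.5 in control buds, a change of −5.87 ± 0.45 on the log2 scale (adjusted p = 9.6e-09). Kcnd3 averaged 76.3 ± 15.0 CPM at E13.5 and 1.73 ± 0.42 CPM at E16.5 (−5.46 ± 0.30, adjusted p = 4.53e-11), Kcnd2 22.8 ± 4.4 CPM and 0.115 ± 0.137 CPM (−7.58 ± 0.78), and Kcnk2 31.4 ± 7.6 CPM and 1.62 ± 1.04 CPM (−4.28 ± 0.34). The values for Kcnab1, Kcnip4 and Kcnj3, a G protein-gated inward rectifier, were −7.27 ± 1.29, −6.10 ± 1.23 and −5.13 ± 1.41; without control replicate 2 of E16.5, the one library of its group above 0, that of Kcnj3 was −9.57. Kcng3, a silent subunit, averaged 13.3 ± 8.1 CPM at E13.5 and 0.490 ± 0.411 CPM at E16.5 in control buds (−4.76 ± 0.80). All 3 Kv4 pores were lower at the later stage. In stabilized buds Kcnd3 was low at both stages, 4.09 ± 1.79 CPM at E13.5 and 2.84 ± 0.68 CPM at E16.5, and the change of −0.53 ± 0.27 did not pass (adjusted p = 0.154). The deepest fall with stage in stabilized buds was that of Kcnv1, with 90.8 ± 25.2 CPM at E13.5 and 2.63 ± 1.10 CPM at E16.5 (−5.11 ± 0.43, adjusted p = 1.08e-07). Kcnk9 fell there by 3.46 ± 0.95 on the log2 scale and Kcng3 by 2.38 ± 0.73; without stabilized replicate 2 of E13.5 these values were −1.18 and −1.24.

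Rises with stage were fewer in control buds. Kcnk5 averaged 1.01 ± 0.98 CPM at E13.5 and 24.9 ± 6.4 CPM at E16.5 in control buds (4.61 ± 0.69, adjusted p = 2.61e-05), whereas in stabilized buds it had 2.16 ± 1.5 CPM and 3.46 ± 1.14 CPM and did not pass (adjusted p = 0.441). Kcnk1 averaged 19.9 ± 4.7 CPM at E13.5 and 65.3 ± 10.7 CPM at E16.5 in control buds (1.71 ± 0.23, adjusted p = 4.35e-06). Kcnk6 and Kcnj15 instead rose in stabilized buds, by 3.81 ± 0.43 and 2.80 ± 0.36 on the log2 scale. Kcne1l rose in both genotypes, with 1.26 ± 0.94 CPM at E13.5 and 14.9 ± 6.3 CPM at E16.5 in stabilized buds (3.56 ± 0.60, adjusted p = 0.000201) and 1.74 ± 1.48 CPM and 10.9 ± 2.9 CPM in control buds (2.65 ± 0.58, adjusted p = 0.000924). It is the one well-measured member of which genotype passed at neither stage while stage passed in both genotypes and in the upward direction. Kcns1, with 0 counts at E13.5, reached 79 counts over the stabilized and 825 over the control libraries of E16.5, at least 21.6-fold and at least 236-fold higher on the floor of 3 counts over the group. In control buds Kcne3 and Kcnc4, also at 0 counts at E13.5, were at least 59.1-fold and at least 6.57-fold higher at E16.5, and Kcnj2 rose by 2.83 ± 0.92 on the log2 scale.

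Genes that work beside potassium channels were counted from lists of their own. Of 16 pumps and cotransporters, 13 were tested; 2 passed at E13.5, both higher, and 3 rose and 4 fell at E16.5, or 15.4% and 53.8% of those tested, beside 14.9% and 41.7% of all genes. Atp1b1, the β subunit of the sodium pump, rose at both stages, averaging 29.9 ± 3.9 CPM in stabilized and 14.2 ± 3.4 CPM in control buds at E13.5 (log2 fold change 1.08 ± 0.25) and 68.3 ± 26.7 CPM and 14.3 ± 3.3 CPM at E16.5 (2.25 ± 0.23). Slc12a2, the sodium, potassium and chloride cotransporter, was higher in stabilized buds at E13.5 (2.58 ± 0.58) and lower at E16.5 (−1.73 ± 0.50). Of the 9 listed channel partners not named Kcn, 7 were matched in the table and tested; 1 rose and 1 fell at E13.5, and 3 rose and 1 fell at E16.5, or 28.6% and 57.1%, beside the same shares of all genes. Dpp10, a membrane partner of Kv4 pores, followed Kcnd2 and Kcnd3: it averaged 19.4 ± 5.0 CPM in stabilized and 106 ± 19 CPM in control buds at E13.5 (−2.45 ± 0.27, adjusted p = 2.34e-06), and 14.5 ± 5.1 CPM and 5.35 ± 1.43 CPM at E16.5 (1.44 ± 0.24, adjusted p = 6.51e-05). Dpp6, its relative, did not pass at E13.5 (0.86 ± 0.32, adjusted p = 0.076) and rose at E16.5 (3.21 ± 0.31, adjusted p = 1.68e-07). Of 11 other potassium-permeable channels, 10 were tested. At E13.5, 1 rose and 1 fell, or 20.0% of those tested, beside 14.9% of all genes. At E16.5, 2 rose and 1 fell, or 30.0%, beside 41.7% of all genes.

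In all, 36 of the 67 tested members passed in a genotype comparison at 1 stage or both, 53.7% beside 46.6% of all tested genes, and 20 passed in none of the 5 comparisons, 29.9% beside 33.7%. Those 20 were low genes such as Kcna2, Kcnj4, Kcnq5 and Kcnt1, the last averaging at most 0.433 CPM in a group. The SE of its log2 fold change was 1.68 at E13.5, so a difference of that size was not detectable at this depth.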

How the data were processed

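RNA-seq libraries of embryonic mammary bud epithelium, made with the Ovation SoLo kit per the labels' protocols, were compared between genotypes and stages. The authors deposited estimated counts per gene, which were whole numbers, and normalized values (a signal in which counts were divided by factors that differ between genes). FastQC 0.11.8, MultiQC 1.9, Trimmomatic 0.39, Salmon 0.99.0, DESeq2 3.15 and the build mm10 are named in the submitters' processing notes; no source states the strand or counting settings. The estimated counts as deposited were tested in edgeR 4.0.16 (R 4.3.3, limma 3.58.1) with TMM scaling, filterByExpr at a minimum count of 10, 1 fit over all 4 groups and quasi-likelihood tests. The fit had also been run on simulated counts of lower spread than these data. Those counts held no true interaction, so the power to find one was not checked. Replicates were separate pools of littermates from several litters; no label gives a library's litter. Genes were placed with GENCODE M21. Members, classes and gene lists were chosen with earlier results of these data known. Named genes were those that passed in a genotype comparison, the highest per kilobase, up to 6 per direction by stage or interaction, and those at the edge of detection. Alternatives were DESeq2 1.42.0, its size factors, other filters, the factors of the deposited normalized table, only the compared groups, a replicate block and leaving out libraries. Values of a few genes are not reported here, though they enter the counts.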

Additional observations from a re-analysis of the deposited data

Results flagged for a closer look

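The genotype effect differed between the stages, by the interaction test, for 20 potassium channel genes, 19 of which are given here; values are the effect at E16.5 minus that at E13.5 on the log2 scale. They were 8.96 for Kcnab1, 6.82 for Kcna4, 5.73 for Kcnd2, 4.93 for Kcnd3, 4.83 for Kcnj15, 4.52 for Kcnn3, 4.22 for Kcnip4, 3.45 for Kcnk6, 3.05 for Kcnh7, 2.67 for Kcnh1, 2.56 for Kcnma1, 2.28 for Kcnn1, 2.07 for Kcnk2 and 1.46 for Kcnh3. More negative effects at E16.5 were found for Kcnk1 (−2.12), Kcnv1 (−2.71), Kcnk5 (−3.93), Kcnc4 (−5.79) and Kcne3 (−6.68); the last 2 genes were at 0 counts in the E13.5 controls, so their fitted values depend on the prior count.

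Single libraries lay far from the rest of their group in 11 of 120 groups over 31 members, where chance gives about 1 in 20. In the stabilized libraries of E13.5, Kcnk9 had 38.6 CPM in replicate 2, against 0.855 to 4.68 CPM in the others, and Kcnf1 had 3.26 CPM in replicate 3. In the controls of E13.5, Kcnd3 had its lowest value, 53.9 CPM, in replicate 3, Kcng3 had 25.4 CPM in replicate 2, Kcnv1 had 3.33 CPM in replicate 2, Kcnj3 had 7.16 CPM in replicate 3 and Kcnn3 had 5.53 CPM in replicate 1. At E16.5, Kcnk6 had 52.3 CPM in stabilized replicate 1 and Kcnj2 had 5.72 CPM in stabilized replicate 3. Among the E16.5 controls, Kcna4 had 1.55 CPM in replicate 2 and Kcnj3 had 0.420 CPM in replicate 2, where the others were at 0.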

How the results depend on the processing

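The counts of potassium channel genes past the test kept within 1.5 times of their main value under the alternatives, with these exceptions. The 11 higher at E13.5 became 7 with the factors of the deposited normalized table, 6 with only the compared groups in the fit and 7 with a replicate block. Leaving out 1 library gave 7 to 12 higher at E13.5, the fewest without control replicate 4, and 5 to 12 lower with stage in stabilized buds, with 5 and 7 without stabilized replicate 2 of E13.5 and of E16.5. Over all genes, 1020 were higher at E13.5 with only the compared groups (main count 1655), and 564 were lower at E13.5 (914) and 1891 in the interaction (2870) with the factors of the deposited table. Across 8943 single values, 8564 kept direction and side of the threshold, 259 lost and 119 gained a call, and 1 reversed: Kcnj8 at E16.5 minus E13.5 in controls was −0.19, and ranged from −0.88 to 5.21 with 1 library left out, the highest without control replicate 1 of E13.5, where the other E13.5 controls are at 0. The causes of the other changes were not tested. DESeq2's test called 13 higher and 13 lower at E13.5 and 27 and 9 at E16.5. Without control replicate 3 of E13.5 and stabilized replicate 1 of E16.5, the counts were 11 and 12, and 21 and 6. Without stabilized replicate 4, the farthest from its group, in place of replicate 1, an alternative chosen after seeing the data, they were 11 and 8, and 22 and 7. Same-numbered libraries correlated between −0.091 and 0.172 at E13.5 and between −0.099 and 0.131 at E16.5. Some libraries, but not every one, correlated best with their own number. Whether equal numbers mark shared litters stays unsettled, since a small litter effect could go unseen in so few libraries. The replicate block gave 7 higher and 9 lower at E13.5 and 20 and 6 at E16.5. Members at under 1 CPM rest on few counts, and their small differences were not detectable at this depth.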
